A study of Mus musculus with 6 samples.

Results

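The genes described here encode the core machinery that makes and uses microRNAs, namely Drosha, Dgcr8, Dicer1, the Argonaute genes Ago1, Ago2, Ago3 and Ago4, and the GW182 genes Tnrc6a, Tnrc6b and Tnrc6c. They were chosen by name, and every probe set that the platform annotation assigns to one of them alone was compared. All 10 genes were found, with 36 probe sets of the 45037 that are not manufacturer controls, and 0 further probe sets list a member together with another gene. The arrays hold RNA of bone marrow cells from healthy C57BL/6 mice, 3 samples that received a miR-142-3p mimic and 3 that received a CTRL oligonucleotide, each at 100 nM with the reagent GeneSilencer. GM-CSF and IL-6 were given to both groups from 5 h after transfection, and the cells were cultured for 4 days, which turns marrow cells into myeloid-derived suppressor cells. RNA was hybridised to the Affymetrix MOE430 2.0 array. The labels mention no sorting of the cells and do not say whether the 3 samples of a group came from separate animals, pooled animals or separate cultures. Since separate sources are not stated, the p-values rest on the scatter among these 6 samples, and that scatter may be technical only.

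MicroRNAs are cut from long transcripts in the nucleus by the microprocessor, in which Drosha is the cutting enzyme and Dgcr8 the RNA-binding partner. The hairpin is exported and trimmed by Dicer to a short duplex, and 1 strand of it is loaded into an Argonaute protein, which it guides to matching messenger RNAs. Argonaute binds a GW182 protein, which recruits the enzymes that shorten the poly(A) tail and remove the cap of the target. Of the 4 Argonautes Ago2 is the one best known for cutting its target, and it is needed for normal blood formation in mice. A mimic is a ready-made duplex, so it enters this pathway at the loading step. The question addressed here is whether the transcripts of the machinery differ between cells given the mimic and cells given the control.

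The microRNA that was added is shown because its seed, the stretch from base 2 to base 8 that pairs with targets, defines what the machinery is guided to. The labels give the mimic by name only, so the sequence is that of the natural mature strand in RefSeq (GRCm38.p6, chr11:87756903-87756925, plus strand), with the seed in capitals.
mmu-miR-142a-3p: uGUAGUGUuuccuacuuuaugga
The complement of the seed, as it would stand in a target, is ACACUAC, and of the 1738 mature mouse microRNAs listed by RefSeq there, 1 has this seed. Sites for it in the member transcripts were not analysed here.

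None of the 36 probe sets passed limma's test after Benjamini-Hochberg adjustment over all 45037 probe sets, and the smallest adjusted p was 0.137. Over the whole array 404 probe sets passed, or 0.897%, of which 148 were higher in the mimic group and 256 lower (315 higher and 316 lower after another round of quantile normalisation). At an unadjusted p under 0.05 stood 8 of the 36, or 22.2%, against 13.4% of all probe sets. Those 8 were 3 probe sets of Ago2 and 2 of Tnrc6a, all with lower means with the mimic, 1 of Dgcr8, also lower, and 1 each of Drosha and Tnrc6b, with higher means. In 6 probe sets the mimic and control arrays did not overlap, 5 with the mimic below and 1 with it above, or 16.7% of the 36. Over the array this held for 17.5% of probe sets, 8.9% below and 8.62% above, so the members' share with groups apart was near the background.

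The differences were mostly small. The 36 log2 fold changes, mimic minus control, ran from -0.69 to 0.50 with a median of 0.01, and 20 were above and 16 below 0. The median over all probe sets was 0.00. For 34 of the 36 the 95% interval lay between -1 and 1, and for 23 it lay between -0.5 and 0.5. Over all probe sets these shares were 95.4% and 68.8%. The wider bounds leave out a 2-fold difference either way in the deposited values, which for dim probe sets need not hold for the RNA. The exceptions to the wider bounds were 1 probe set of Dgcr8 and 1 of Tnrc6b.

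Many of the probe sets are dim. The deposited values are on a log2 scale whose floor lies near 0, and 52.6% of all values on the arrays are below 1. Of the 36 probe sets 9 had a mean below 1 over the 6 arrays and 17 had a mean below 3. The remaining 19 came from 8 genes, and Ago3 and Ago4 were below 3 in all their probe sets. Of the 19, 18 had a 95% interval between -1 and 1 and 10 between -0.5 and 0.5. These were 94.7% and 52.6%, against 90.2% and 52% of all probe sets as bright. Near the floor a narrow interval does not exclude a difference in the RNA. Among the 19, the groups were apart in 31.6%, against 34.7% of the 12208 probe sets as bright, and 36.8% had an unadjusted p under 0.05, against 27.8%. In bulk RNA fewer cells that express a gene and less RNA per cell cannot be told apart, which applies to each value given here.

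**Figure D1:**
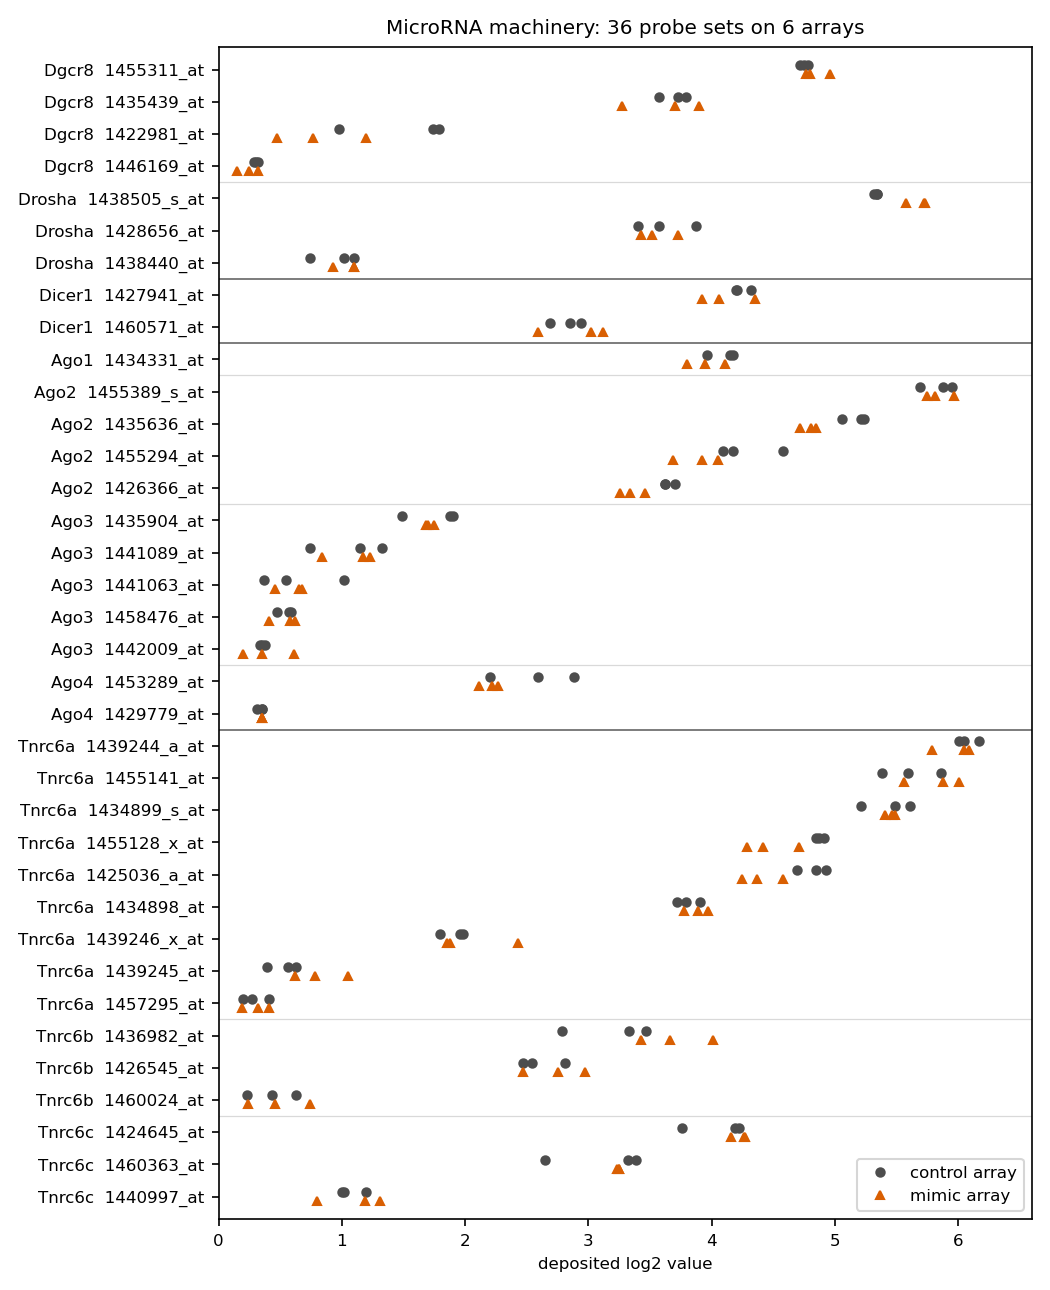
Deposited log2 value (horizontal axis) of each of the 36 member probe sets (rows, grouped by role and gene, brightest first) on the 3 control arrays (grey circles) and the 3 mimic arrays (orange triangles). The groups are apart in 6 rows, 5 with the mimic below (3 of Ago2, 2 of Tnrc6a) and 1 with it above (Drosha 1438505_s_at), while all 5 rows of Ago3 lie below 2.

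Neither microprocessor gene passed the test, and in Drosha 1 of 3 probe sets had its groups apart, against 17.5% of all probe sets. The brightest probe set of Drosha, 1438505_s_at, read 5.32, 5.34 and 5.34 on control arrays 1, 2 and 3 and 5.73, 5.58 and 5.72 on mimic arrays 1, 2 and 3. All mimic arrays lay above all control arrays, and the control arrays spanned hardly any range. The log2 fold change was 0.35 ± 0.09 (SE, n = 3 per group, 95% interval 0.15 to 0.55), a 1.27-fold difference, with an adjusted p of 0.137 by limma. It passed in 1 alternative, in which only the 6153 probe sets with a mean of at least 5 were tested (adjusted p = 0.03, range over its 15 alternatives 0.03 to 0.377), and there 12.7% of all probe sets passed. The suffix "s" marks a probe set that the manufacturer lists as shared by several transcripts, and no source accession is listed for it in the annotation. The probe set 1428656_at of the same gene read 3.87, 3.57 and 3.40 in control and 3.43, 3.52 and 3.73 with the mimic, so its groups overlapped (log2 fold change -0.05 ± 0.15). The third, 1438440_at, had means of 0.95 and 1.04. With the 3 probe sets averaged, the log2 fold change of Drosha was 0.13 ± 0.09 (adjusted p = 0.576 by limma).

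Dgcr8, the partner of Drosha, has 4 probe sets. The brightest, 1455311_at, read 4.72, 4.75 and 4.78 in control and 4.96, 4.77 and 4.80 with the mimic. The groups overlapped on mimic array 2, and the log2 fold change was 0.10 ± 0.09 (95% interval -0.11 to 0.31). The second, 1435439_at, had a log2 fold change of -0.08 ± 0.16. A dim probe set, 1422981_at, gave the largest difference among all members, -0.69 ± 0.26 (95% interval -1.30 to -0.08, adjusted p = 0.308 by limma). It read 0.98, 1.79 and 1.74 in control and 0.77, 0.47 and 1.20 with the mimic, so control array 1 lay within the range of the mimic arrays. Without control array 1 the log2 fold change was -0.95. The fourth, 1446169_at, had means of 0.31 ± 0.02 and 0.24 ± 0.09 (SD, n = 3).

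Dicer1, whose product makes the mature duplex, had overlapping groups in both probe sets. The brighter, 1427941_at, read 4.21, 4.32 and 4.20 in control and 4.06, 4.35 and 3.92 with the mimic (log2 fold change -0.13 ± 0.12, 95% interval -0.42 to 0.16). Mimic array 2 was the highest of all 6 arrays and mimic array 3 the lowest. The dimmer, 1460571_at, had a log2 fold change of the other sign, 0.08 ± 0.15. In Dicer1 a change of 0.5 on the log2 scale lay outside both intervals.

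Among the Argonautes the groups were apart in Ago2 alone, in 3 of its 4 probe sets, and the brightest did not share this. All 4 had a mean of at least 3, and of probe sets as bright the groups were apart in 34.7%. Of the other Argonautes only Ago1 had a probe set as bright. The probe set 1435636_at read 5.06, 5.24 and 5.21 on control arrays 1, 2 and 3 and 4.81, 4.72 and 4.85 on mimic arrays 1, 2 and 3. Every mimic array lay below every control array, and the log2 fold change was -0.38 ± 0.09 (95% interval -0.60 to -0.16, a 1.3-fold difference, adjusted p = 0.137 by limma). Over 13 alternatives its adjusted p ran from 0.0505 to 0.36. The probe set 1426366_at read 3.62, 3.70 and 3.62 in control and 3.46, 3.34 and 3.26 with the mimic, again with no overlap (-0.29 ± 0.09, adjusted p = 0.227). The third of these, 1455294_at, read 4.58, 4.17 and 4.09 in control and 3.92, 4.05 and 3.69 with the mimic, where the gap between the groups was narrow (-0.39 ± 0.16, adjusted p = 0.341). Without control array 1, its highest array, its log2 fold change was -0.24.

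The brightest Ago2 probe set, 1455389_s_at, showed no such difference, and its suffix "s" again marks a probe set listed as shared by several transcripts. It read 5.69, 5.88 and 5.95 in control and 5.81, 5.97 and 5.75 with the mimic, with overlapping groups and a log2 fold change of 0.00 ± 0.11 (95% interval -0.25 to 0.26). It is listed with the same source accession as 1435636_at, so the pair can be set against each other within each array. The difference between them was 0.63, 0.64 and 0.74 in control and 1.0, 1.25 and 0.90 with the mimic, and it was larger on each mimic array than on any control array. The change in this difference was 0.38 (exact two-sided permutation p = 0.1, the smallest that 3 against 3 arrays can give, adjusted p = 0.667 over 10 pairs). Of the 10 pairs of member probe sets that share an accession this was the 1 pair whose groups were apart. With all 4 probe sets averaged the log2 fold change of Ago2 was -0.26 ± 0.08 (95% interval -0.44 to -0.09, adjusted p = 0.13 by limma), and with the brightest alone it was 0.00.

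The other 3 Argonaute genes are neighbours on mouse chromosome 4. Ago1 has 1 probe set, which read 3.96, 4.17 and 4.15 in control and 3.95, 4.11 and 3.80 with the mimic (log2 fold change -0.14 ± 0.11, 95% interval -0.40 to 0.13). Ago4 was dim. Its probe set 1453289_at read 2.20, 2.88 and 2.59 in control and 2.27, 2.22 and 2.11 with the mimic, where control array 1 fell among the mimic arrays (-0.36 ± 0.17, adjusted p = 0.423 by limma). Its log2 fold change was -0.53 without control array 1, -0.20 without control array 2, the highest array, and -0.18 with the level of the spike-ins as a covariate. The other, 1429779_at, held the same value of 0.35 on 5 of the 6 arrays and so carries no information on a change. The 5 probe sets of Ago3 had means from 0.36 to 1.76 in control and from 0.39 to 1.71 with the mimic, their log2 fold changes lay between -0.05 and 0.02, and the groups overlapped in each. A difference in Ago3 or Ago4 was not readily detectable at these levels.

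**Figure D2:**
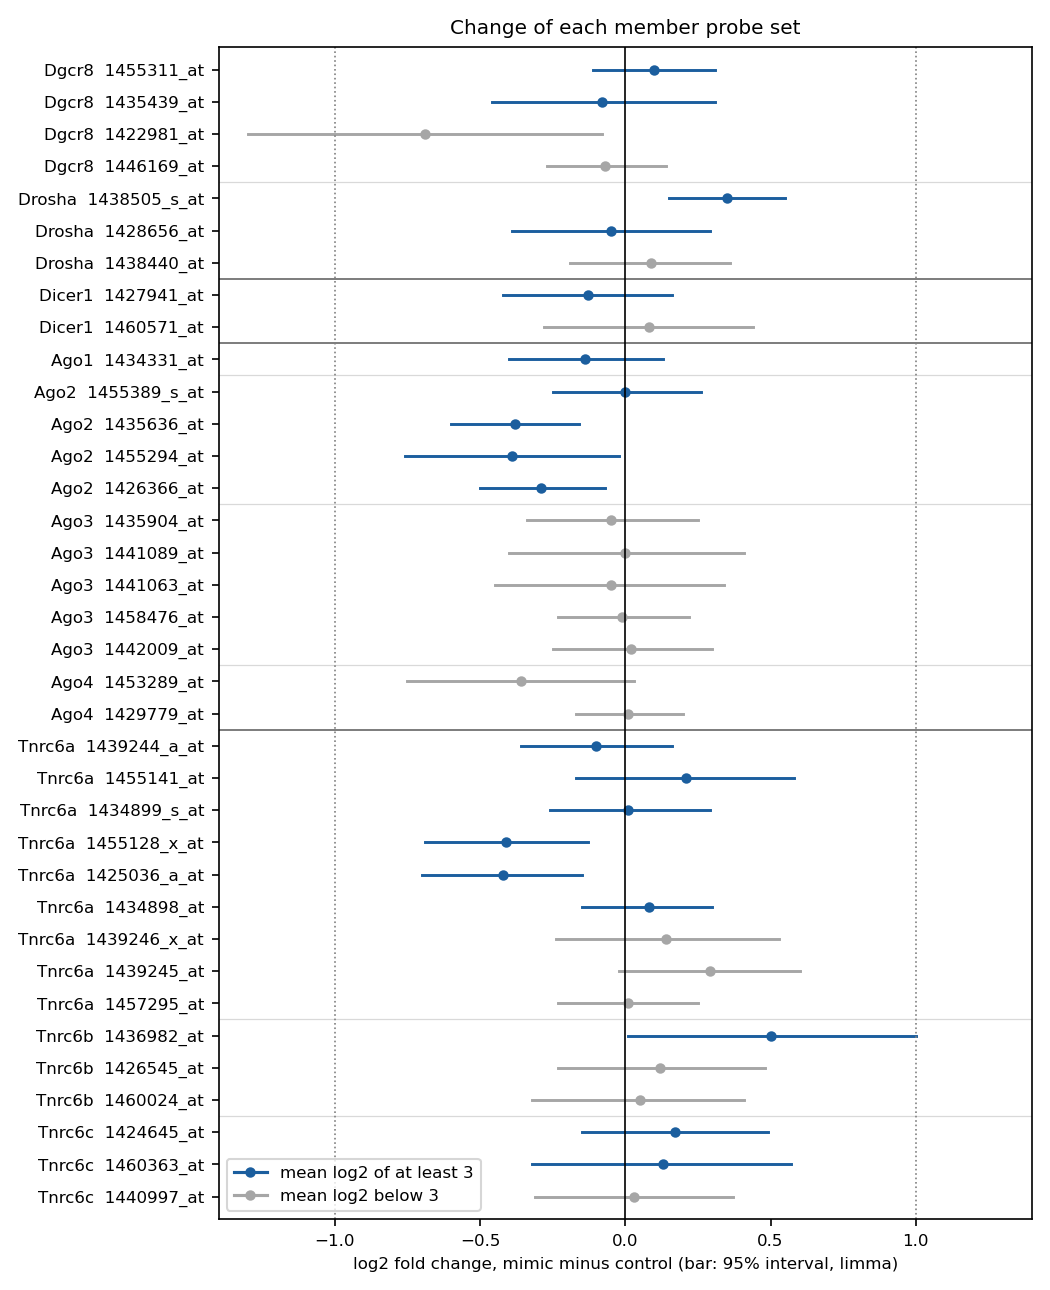
Log2 fold change, mimic minus control, of each member probe set (points) with its 95% interval from limma (bars), blue for a mean log2 of at least 3 and grey below it, with dotted lines at a 2-fold difference. No interval lies wholly beyond a dotted line, and probe sets of 1 gene differ, as in Ago2 (-0.39 to 0.00) and Tnrc6a (-0.42 to 0.29).

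No GW182 gene passed the test with all arrays as deposited, and the probe sets of Tnrc6a differed in sign. Tnrc6a has 9 probe sets, of which 6 had a mean of at least 3. The probe set 1425036_a_at read 4.69, 4.85 and 4.93 in control and 4.58, 4.25 and 4.37 with the mimic (log2 fold change -0.42 ± 0.12, 1.34-fold, adjusted p = 0.175 by limma). The probe set 1455128_x_at read 4.91, 4.87 and 4.85 in control and 4.29, 4.42 and 4.71 with the mimic (-0.41 ± 0.12, adjusted p = 0.199). In both, all mimic arrays lay below all control arrays, by the least on mimic array 1 in the first and on mimic array 3 in the second. Groups were apart in 34.7% of all probe sets with a mean of at least 3. The suffix "x" marks probes that may also bind unrelated transcripts.

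The brighter Tnrc6a probe sets did not share this. The brightest, 1439244_a_at, read 6.17, 6.05 and 6.01 in control and 6.09, 5.79 and 6.05 with the mimic (log2 fold change -0.10 ± 0.11, 95% interval -0.36 to 0.16). The next, 1455141_at, had a higher mean with the mimic, 5.82 ± 0.23 against 5.61 ± 0.24 (SD, n = 3), and a log2 fold change of 0.21 ± 0.16. The probe sets 1434899_s_at and 1434898_at stood at 0.01 ± 0.12 and 0.08 ± 0.10, and the 3 dim ones between 0.01 and 0.29. The average over all 9 was -0.02 ± 0.08 (95% interval -0.20 to 0.16).

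**Figure D3:**
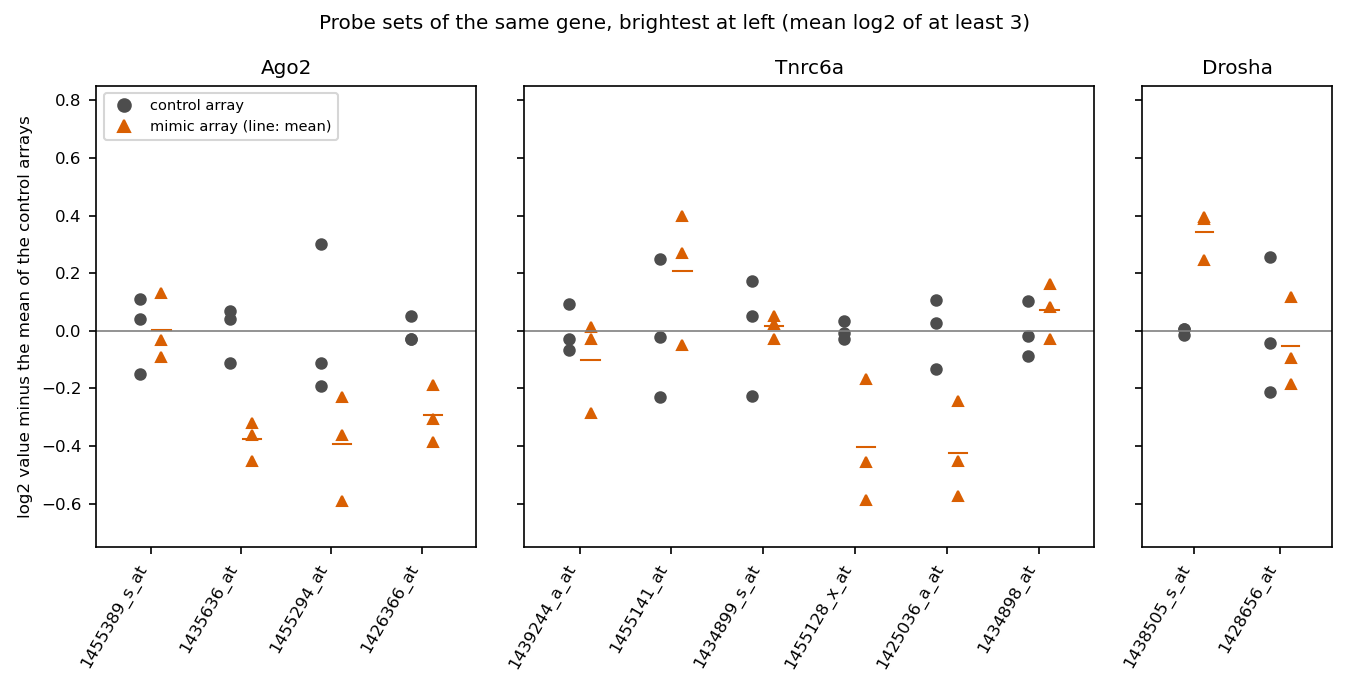
Log2 value minus the mean of the control arrays (vertical axis) for the Ago2, Tnrc6a and Drosha probe sets with a mean log2 of at least 3, brightest at left in each panel, on control arrays (grey circles) and mimic arrays (orange triangles, line at their mean). In Ago2 the brightest probe set has a mean difference of 0.00 and the other 3 between -0.39 and -0.29, and in Drosha 1 of 2 has its groups apart.

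Tnrc6b gave the largest positive value among the members. Its brightest probe set, 1436982_at, read 2.79, 3.47 and 3.33 on control arrays 1, 2 and 3 and 3.66, 4.01 and 3.43 on mimic arrays 1, 2 and 3. Mimic array 3 lay below control array 2, so the groups overlapped, and the log2 fold change was 0.50 ± 0.21 (95% interval 0.01 to 1.0, adjusted p = 0.364 by limma). Without control array 1, the lowest array, the log2 fold change was 0.30 (adjusted p = 0.535), and without mimic array 2, the highest, it was 0.35. With the level of the bacterial spike-ins on each array as a covariate it was 0.79 and passed (adjusted p = 0.023, range over its 14 alternatives 0.023 to 0.633), in a fit where 4.75% of all probe sets passed. The spike-in level was 8.57 on control array 1 and 7.58 and 7.53 on the other controls, and 8.17, 8.06 and 8.92 on mimic arrays 1, 2 and 3. The other Tnrc6b probe sets, 1426545_at and 1460024_at, had log2 fold changes of 0.12 ± 0.15 and 0.05 ± 0.16.

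Tnrc6c, the last GW182 gene, had overlapping groups in its 3 probe sets. The probe set 1424645_at read 3.76, 4.22 and 4.19 in control and 4.16, 4.27 and 4.26 with the mimic (log2 fold change 0.17 ± 0.14, 95% interval -0.15 to 0.49). Control array 1 stood apart as the lowest, as it did in 1460363_at at 2.65 against 3.39 and 3.32. The mimic arrays of 1460363_at lay within 3.23 to 3.25. The third probe set, 1440997_at, had means of 1.07 and 1.10.

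Control array 1 was the lowest control array in 13 of the 19 member probe sets with a mean of at least 3, or 68.4%, and control array 2 in 0. Over all probe sets as bright, control array 1 was the lowest in 48.8%. This array also had the lowest control level of the interferon response and neutrophil lists and the highest of the dendritic cell list, with list means of 6.24, 10.10 and 7.47 against 7.02 to 7.32, 10.54 to 10.64 and 6.19 to 6.62 on the other controls. The difference between the 3′ and 5′ probe sets of actin, a measure of RNA integrity, was 2.39 on mimic array 2 and 1.64 to 1.85 on the other arrays. Mimic array 2 was the highest mimic array in 9 of the 19 (47.4%, against 40.2% of all probe sets as bright) and mimic array 3 the lowest in 9 (47.4%, against 43.6%), both near the background. The part of these differences between arrays in the values of the members was not tested.

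Several lists of cell type markers differed in level between the groups. The arrays had high levels of the neutrophil genes (8 of 8 listed, list means of 10.10 to 10.64 in control and 10.92 to 10.97 with the mimic). Monocyte and macrophage genes were also high (7 of 7, 7.90 to 7.99 and 7.25 to 7.36). Both lists mark myeloid cells in general and do not by themselves identify suppressor cells. Ctsg passed as higher in the first list, and Cd14, Itgam and Lyz2 as lower in the second. Erythroid markers were near the floor (4 of 5 measured, means of 0.44 to 0.69 and 0.68 to 0.74), and B cell markers were low (4 of 5, 3.65 to 3.95 and 3.29 to 3.47, Ms4a1 lower), as were those of T and NK cells (4 of 5, 1.67 to 2.02 and 2.22 to 2.26, 0 passing). The higher mean of the T and NK list came mainly from Nkg7 (log2 fold change 1.63 ± 0.35, adjusted p = 0.0977 by limma). For Cd3d, Cd3e and Cd3g the log2 fold changes were 0.15, -0.08 and -0.22. All 7 dendritic cell markers were lower on every mimic array than on any control array (6 passed), with list means of 6.19 to 7.47 in control and 4.32 to 4.50 with the mimic. All 8 measured interferon response genes of 10 listed were higher on every mimic array (3 passed), at 6.24 to 7.32 and 8.45 to 8.52. The part of these shifts in the Ago2, Tnrc6a and Drosha values was not tested.

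Genes that act with the core machinery were examined from a list of 61, of which 59 had a probe set of their own (Cnot1 and Hsp90ab1 were not analysed here). Through the brightest probe set of each, 1 was lower, 0 were higher and 58 did not pass over all probe sets tested, or 1.69%, against 1.45% of the brightest probe sets of all 18193 genes. The median log2 fold change was 0.04. At an unadjusted p under 0.05 stood 12 of the 59 (16.9% of all genes), and in 33.9% the groups were apart (22.2% of all genes). Of the 59, 51 had a mean of at least 3, and over all probe sets as bright these shares were 27.8% and 34.7%, so the share with groups apart was near that background.

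The gene that passed was Limd1, which encodes a LIM domain protein that binds Argonautes and links them to the cap-binding complex. It read 5.09, 5.22 and 5.22 on control arrays 1, 2 and 3 and 4.45, 4.57 and 4.52 on mimic arrays 1, 2 and 3. The groups were apart by more than the range within either, and Limd1 fell by 0.66 ± 0.09 on the log2 scale (95% interval -0.87 to -0.45, 1.58-fold, adjusted p = 0.0309 by limma). A dimmer probe set of the gene, 1422730_at, had a log2 fold change of -0.39 ± 0.15 with overlapping groups (adjusted p = 0.307). The call was kept in 8 of 14 alternatives (adjusted p 0.0108 to 0.19 over all 14) and lost without control array 2 (0.186), control array 3 (0.0821), mimic array 1 (0.19), mimic array 2 (0.12) or mimic array 3 (0.126), with log2 fold changes of -0.69 to -0.63, and in 1 further alternative at -0.66. Limd1 is 1 of 11 silencing complex partners, among which 2 had an unadjusted p under 0.05, against 16.9% of all genes. The other was the helicase gene Mov10, an Argonaute partner also known as interferon-inducible (0.30 ± 0.10, adjusted p = 0.239), chosen after its values were seen.

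In the other sub-lists 0 genes passed with all arrays as deposited. With the spike-in covariate Cnot4, Ncbp2 and Tut4 passed as higher, in a fit where 4.75% of all probe sets passed. The genes of turnover and tailing had the most at an unadjusted p under 0.05, 5 of 11, with a median log2 fold change of -0.03. That share was 16.9% over all genes and 27.8% over probe sets with a mean of at least 3. The 5 differed in direction, with Tut4 and Tent2 higher and Dis3l2, Tsnax and Zswim8 lower. The strongest was Tut4, whose product adds uridines to microRNA precursors. It read 3.11, 3.41 and 3.14 in control and 3.75, 4.09 and 3.80 with the mimic (0.66 ± 0.13, adjusted p = 0.0798 by limma), with all mimic arrays above all control arrays. Tut4 passed in 4 of 14 alternatives (adjusted p 0.0302 to 0.243), and its other 4 probe sets, all below 1, had log2 fold changes of -0.04 to 0.11.

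Of 13 deadenylation genes the strongest was Cnot7, a catalytic subunit of the CCR4-NOT complex that shortens poly(A) tails, which read 6.49, 6.51 and 6.51 in control and 6.83, 6.83 and 6.88 with the mimic (0.34 ± 0.08, adjusted p = 0.119 by limma). Its groups were apart, and the list's median was 0.06. Cnot7 passed when only probe sets with a mean of at least 5 were tested, where 12.7% of all probe sets passed. Of 9 decapping and decay genes it was Dcp2, the decapping enzyme (0.34 ± 0.13, adjusted p = 0.305). Of 5 Dicer partners and loading factors it was Adar, an RNA-editing enzyme that is also interferon-inducible (0.33 ± 0.10, adjusted p = 0.218), and of 8 processing cofactors it was the splicing factor gene Srsf3 (0.26 ± 0.09, adjusted p = 0.286). Xpo5, which carries hairpins out of the nucleus, had the lower p of the 2 export genes and a log2 fold change of -0.14 ± 0.09 (95% interval -0.34 to 0.07).

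**Figure D4:**
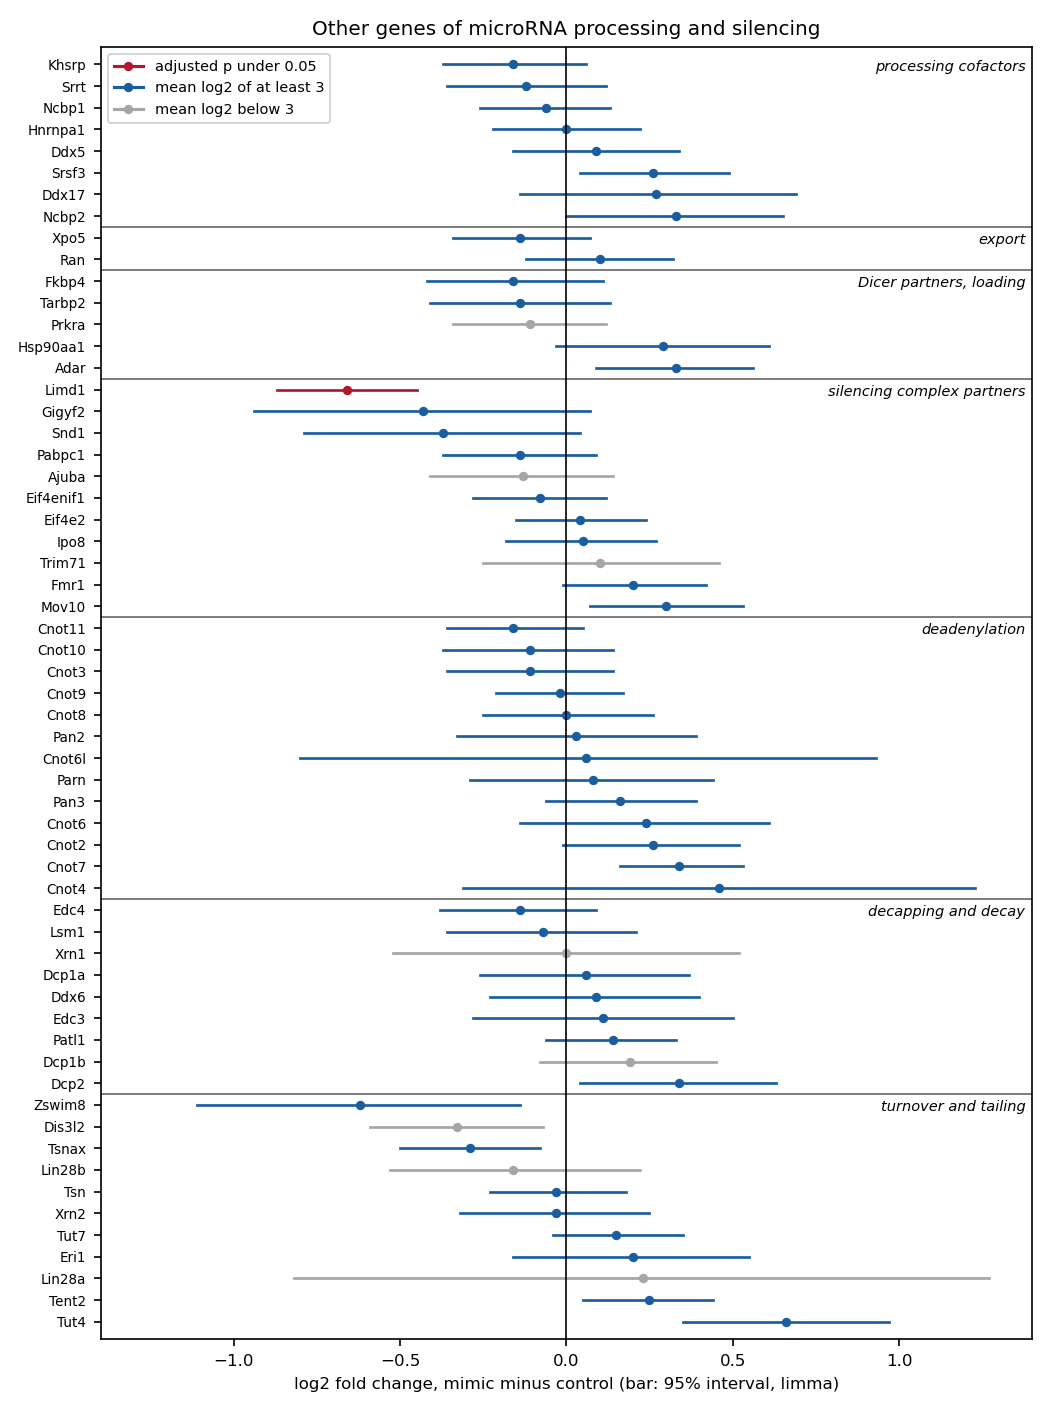
Log2 fold change, mimic minus control, with its 95% interval from limma, for the brightest probe set of 59 genes that act with the core machinery, grouped by step. Limd1 (red, -0.66) passed the adjusted threshold of 0.05, Tut4 (0.66) did not, and the list median was 0.04.

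The genes whose levels ran most like the brightest Drosha probe set over the 6 arrays were sought among 4092 genes with a mean of at least 5, as Drosha had the smallest p among the brightest probe sets of the members. They were Psmc2, which encodes a proteasome ATPase (Pearson r = 0.9893), Bst2, which encodes the antiviral protein tetherin (0.9891), and Adgre5, which encodes the adhesion receptor CD97 (0.9870). Over the 6 arrays 62 of the 4092 had an r above 0.95. Bst2 had a control mean of 7.47 ± 0.10 and a mimic mean of 8.20 ± 0.15 (SD, n = 3) and passed the test (adjusted p = 0.0409 by limma). Psmc2 and Adgre5 did not (adjusted p = 0.282 and 0.0614). Since Drosha was chosen by its p between the groups, genes that follow it over the same arrays tend to differ between the groups. The results of these 3 genes are therefore not independent of that choice.

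**Figure D5:**
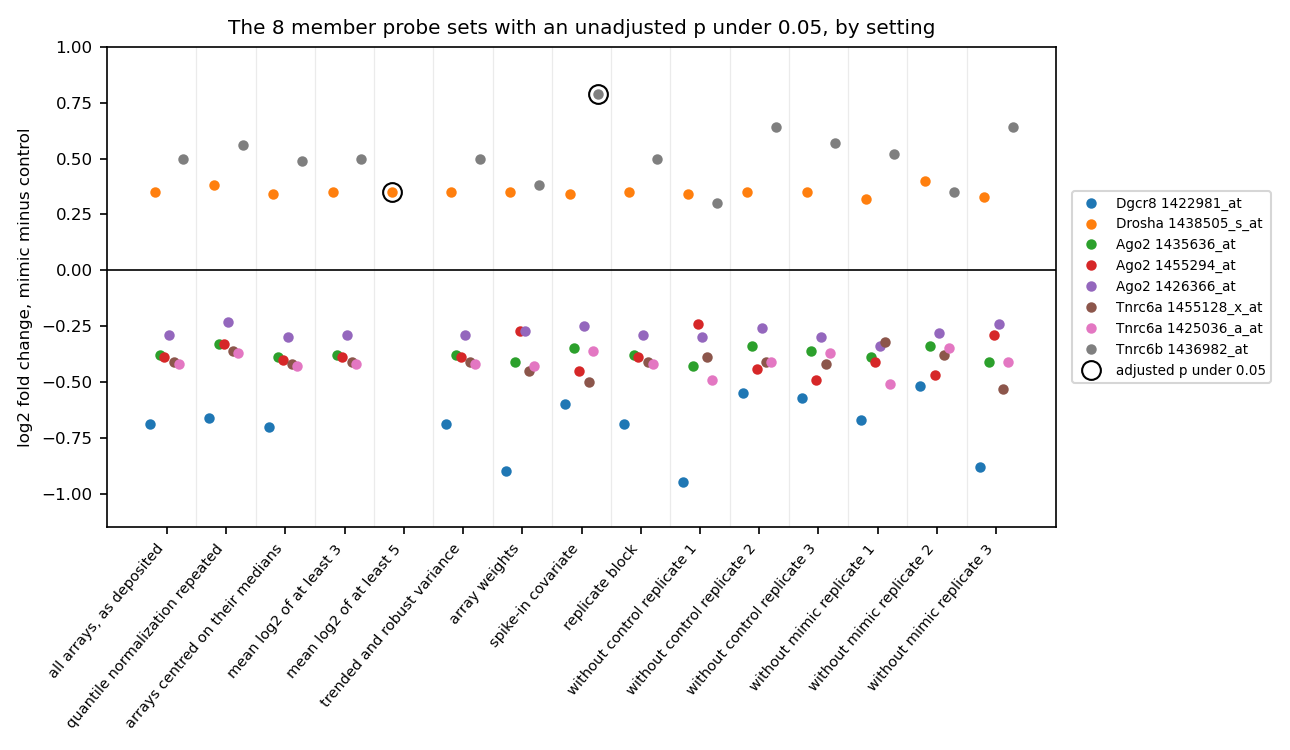
Log2 fold change, mimic minus control, of the 8 member probe sets with an unadjusted p under 0.05 (colours), with all arrays as deposited and under the alternatives (horizontal axis), black rings marking an adjusted p under 0.05. The alternatives with 1 probe set per gene or their average are not drawn, and probe sets below a minimum mean have no point there. All 8 stay on 1 side of 0, and rings stand at Drosha 1438505_s_at among probe sets with a mean of at least 5 (0.35) and at Tnrc6b 1436982_at with the spike-in covariate (0.79).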

How the data were processed

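Gene expression of 6 samples was measured on Affymetrix MOE430 2.0 arrays. The deposited table holds 1 log2 value per probe set and array. Per the submitters' processing notes RMA and affy were used, without version or role. Probe set definitions and any centring or floor were not given in the sources used here. From the highest value, 12.29, the log2 base was inferred, since a natural log of 16-bit scanner intensities ends at 11.09. Array medians ran from 0.84 to 0.92, and values were used as deposited. Arrays correlated at 0.982 to 0.996, and the number of arrays limits the precision.

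Of 45101 probe sets 64 manufacturer controls were left out. Of the others 34945 carry 1 gene symbol in the platform annotation, 932 several and 9160 none; symbols were updated by gene identifier through RefSeq (34741 matched). Groups were assigned by the labelled treatment and compared across all 45037 probe sets by limma (version 3.58.1, R version 4.3.3), using lmFit and eBayes without covariates; p-values are two-sided and adjusted by Benjamini-Hochberg, with a threshold of 0.05. The method was tested on simulated data. Errors are SE for fold changes and SD for levels.

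Alternatives were repeated quantile normalisation, median centring, minimum means of 3 and 5, 1 probe set per gene or their average, a trended robust variance, array weights, a spike-in covariate (18 probe sets), the replicate number as a block and each array left out. Named by rule are all members, and of the further genes each that passed and otherwise the 1 with the smallest p per sub-list. Beyond this rule, Mov10, Tent2, Dis3l2, Tsnax and Zswim8 were named for an unadjusted p under 0.05. Cnot4 and Ncbp2 were named for passing with the spike-in covariate. The gene most like a member was sought by correlation. The members and lists were chosen with earlier results of these data known.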

Additional observations from a re-analysis of the deposited data

How the results depend on the processing

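The count of member probe sets that passed was 0 with all arrays as deposited (limma, 8 at an unadjusted p under 0.05) and in every alternative except 2, each with 1: a minimum mean of 5 (Drosha 1438505_s_at) and the spike-in covariate (Tnrc6b 1436982_at). It was 0 with each array left out. The total count, 404, was 631 with quantile normalisation repeated, 835 and 780 with a minimum mean of 3 and 5, 812 with a trended robust variance, 944 with array weights and 2138 with the spike-in covariate. With an array left out it ran from 0 to 314, and it was 0 without control array 2 or any 1 of the mimic arrays (4579 to 5518 at an unadjusted p under 0.05). With the replicate number as a block 69 probe sets and 0 members passed, and the call of Limd1 was lost (adjusted p = 0.083 by limma). The numbers were not taken as pairs with all arrays as deposited, since the labels do not say whether they pair samples. Deviations of same-numbered arrays from their group means correlated at -0.11, 0.19 and -0.24. With 3 arrays centred in each group, these correlations cannot decide whether the arrays are paired. Of 466 alternative values of member probe sets 464 moved by less than the spread between replicates and stayed uncalled, 49 with the sign turned, all in probe sets that never passed. For 19 of the 36 the sign held in each alternative. The causes of these differences were not tested.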
